A study of Mus musculus with 12 samples.

Results

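The subject is the cold effect by duration interaction in mouse white adipose tissue: the difference between the cold effect measured after 5 weeks at 4 °C and the cold effect measured after 1 week. It was formed for each gene as the 5 week cold mean minus the 5 week control mean, less the same difference at 1 week, by the groups given in the sample titles. It used 12 of the 12 arrays of the series, 3 in each of 4 groups, and the test covered the 12855 genes that passed a filter on dim signals. The groups were control_1wk, cold_1wk, control_5wk and cold_5wk, and arrays are called by group and replicate number. All mice were male C57/BL6 mice of 6 to 8 weeks with no stated genetic change, and all had lived at 22 °C. The labels describe adaptation to 18 °C over 1 to 3 weeks before cold exposure at 4 °C, which lasted 1 week or 5 weeks. For the controls the titles state 30 °C whereas the source names say room temperature, and the fat depot is not named. Whether arrays of the same group stem from different mice is not stated, so the spread behind each p-value may be only technical. The labels name the durations and the temperatures but not the purpose of comparing them.

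White fat stores triglyceride, and in the cold part of it can take on features of brown fat. Beige adipocytes then appear, which make the uncoupling protein Ucp1, fill with mitochondria and burn fatty acids and glucose for heat under the control of sympathetic nerves. Blood vessels, nerve fibres and immune cells of the tissue are known to remodel at the same time. An interaction near 0 means that a gene differed from its control by the same amount at both durations. A gene whose cold effect is smaller in size at 5 weeks fades, and one whose effect is larger grows. One whose effect passes the test at both durations, with opposite signs, is opposed. Values are log2 signals, so an interaction of 1 is a 2-fold difference between the cold effects.

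Several arrays stood apart from the others in ways that move with the interaction. The first is the Gapdh difference, the log2 signal of the 3' control probe set less that of the 5' one, which rises when RNA is degraded or labelled short. It was 0.90, 3.00 and 3.12 in control_1wk, -0.08, 0.34 and -0.08 in cold_1wk, 0.03, -0.01 and -0.08 in control_5wk, and 0.96, 0.19 and 3.01 in cold_5wk. Formed like a gene, this measure had an interaction of 3.69. The same measure for Actb was 2.03, 1.84 and 2.80 in cold_5wk and between 1.01 and 1.35 on the other 9 arrays, with an interaction of 1.23. The second is the mean of the 27 tested skeletal muscle markers, which was 8.69 on cold_1wk 2, 7.24 to 7.48 in control_5wk and 5.08 to 5.63 on the other arrays, with an interaction of -3.20. In addition, the control_5wk arrays resembled each other more than the arrays of any other group did, with a median SD over genes of 0.09 against 0.13 to 0.16. Adipocyte markers were bright on every array (Adipoq 14.59 to 14.83, Fabp4 15.33 to 15.80). The part of RNA quality and of muscle in the results below was not tested as a cause. Values without the 3 arrays of highest Gapdh signal are given where they move an interaction by more than 1.5 times, and the genes that stayed called without them are listed below.

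**Figure D1:**
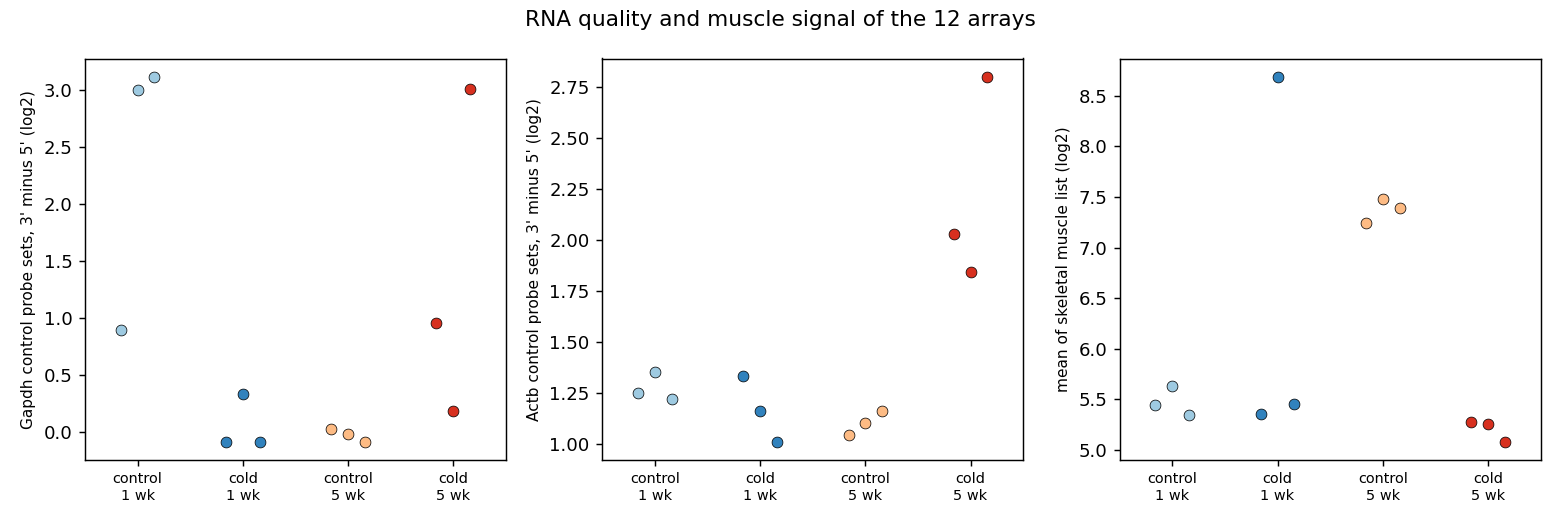
Each point is 1 array, grouped by treatment and duration; the y axes show the Gapdh 3' minus 5' signal, the Actb 3' minus 5' signal and the mean of the skeletal muscle markers, all in log2 units. Gapdh is at 3.00 or more on control_1wk 2 and 3 and on cold_5wk 3, and the muscle mean is above 7 on cold_1wk 2 and on all 3 control_5wk arrays.

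The cold effect differed between the durations for 2551 of 12855 genes, 19.8% of those tested (limma, Benjamini-Hochberg adjusted p under 0.05). The interaction was above 0 for 1474 of them (11.5% of genes tested) and below 0 for 1077 (8.38%), and it reached 2-fold for 696. The share above 0 among the called genes, 57.8%, was 45.7% with each array centred on its median, 47.3% with quantile normalization and 41.8% with the mean of all probe sets of a gene. The most frequent pattern was fading, with 1563 genes (61.3% of the called genes). Of these, 487 had risen in the cold at 1 week and 1076 had fallen. Growing effects numbered 707 (27.7%), of which 268 were rises and 439 falls. Over all genes, the cold effect itself was called for 49.5% at 1 week (17.9% higher in the cold and 31.6% lower) and for 36.2% at 5 weeks (15.0% higher and 21.2% lower). The cold effect was called at both durations with opposite signs for 210 genes (8.23%), 112 that rose at 1 week and fell at 5 weeks and 98 that fell first and rose later. The remaining 71 genes were in none of these classes. The counts of called list members below compare with 19.8% of all genes, 11.5% higher and 8.38% lower. In whole tissue, fewer cells of a type and less RNA per cell cannot be told apart.

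**Figure D2:**
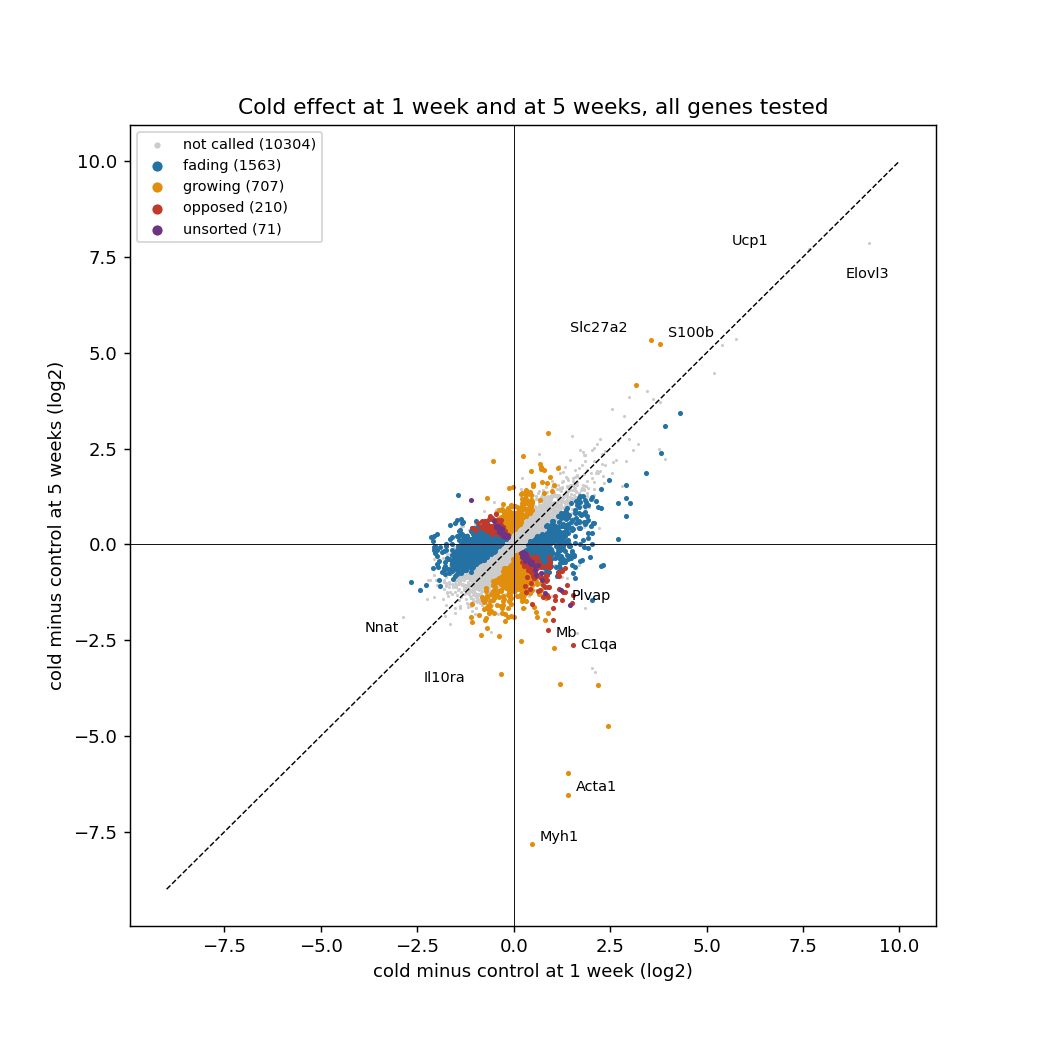
Each point is 1 of the 12855 genes tested, with the log2 cold effect at 1 week on the x axis and at 5 weeks on the y axis; colours mark genes called in the interaction by class, and the dashed line is equal effects. Fading genes (1563) lie along the x axis, growing genes (707) along the y axis and opposed genes (210) in the upper left and lower right, while Ucp1 and Elovl3 lie far out near the line.

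The interaction equals the change from 1 to 5 weeks in the cold less the change from 1 to 5 weeks in the controls, so it can come from either arm. Of the 2551 genes, 1916 differed between durations in the cold arrays only, 147 in the control arrays only, 46 in both and 442 in neither alone. The cold arm held a median of 72.0% of a called gene's interaction. Among all genes, 27.5% differed between durations in the cold and 2.55% did in the controls. Slc27a2, Plvap and Mb, described below, moved mostly in the controls. These comparisons share arrays, so they locate an interaction and are no separate evidence for it.

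The number of genes called depended on a few arrays. The signs of the called genes mostly held, but these genes were selected on the same arrays, so that is no separate support. Leaving out 1 array at a time gave 1381 to 3021 called genes. Among these, the count was 1455 without control_1wk 2, 1389 without control_5wk 1, 1381 without control_5wk 2 and 1583 without cold_5wk 3. Without control_1wk 2, control_1wk 3 and cold_5wk 3, the arrays of highest Gapdh 3' minus 5' signal, 160 genes were called (1.24%), 66 of them higher (0.513%) and 94 lower (0.731%), and 146 were among the 2551. That setting leaves control_1wk with 1 array, whose own spread cannot be seen, so the calls borrow the spread of the other 3 groups. All 2551 kept their sign there, with a median size of 0.78 of the full value. With the Gapdh signal as a covariate 3 genes were called, 99.2% of the 2551 kept their sign, the median size was 0.65 of the full value and the median SE was 0.27 in place of 0.18. None of the 115 called genes named by rule stayed called with that covariate. Of all 140 called genes named, 24 stayed called without the 3 arrays and the others lost the call there. The 24 are Bcap31, Bhlhe40, Cd99, Cenpb, Cox8b, Dbp, Echs1, Fdps, Gbp3, Get3, Il10ra, Jam2, Mb, Pacc1, Pdk4, Pecam1, Plvap, S100a9, S100b, Slc25a1, Slc27a2, Tet2, Tlcd4 and Zfp81. With the Actb signal as a covariate no gene was called by limma, 1004 had an unadjusted p under 0.05 and 98.7% of the 2551 kept their sign. Averaging the 3 control_5wk arrays into 1 left 1 gene called by limma and 2811 with an unadjusted p under 0.05.

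That gene was Bcap31, a membrane protein of the endoplasmic reticulum that sorts other membrane proteins, named here after its values were seen. Its signal was 12.35, 12.25 and 12.21 in control_1wk and 12.54, 12.58 and 12.60 in cold_1wk. It was 12.26, 12.20 and 12.28 in control_5wk and 11.00, 11.02 and 11.01 in cold_5wk. The cold arrays lay above their controls at 1 week and below them at 5 weeks, without overlap. The cold effect was 0.31 at 1 week and -1.24 at 5 weeks, an interaction of -1.54 (SE 0.10, limma adjusted p = 9.53e-05). The call held with the Gapdh covariate (-1.45, adjusted p = 0.0192) and was lost with the Actb covariate. Of the 146 genes that stayed called without the 3 arrays, 57 were opposed, 46 fading and 43 growing.

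**Figure D3:**
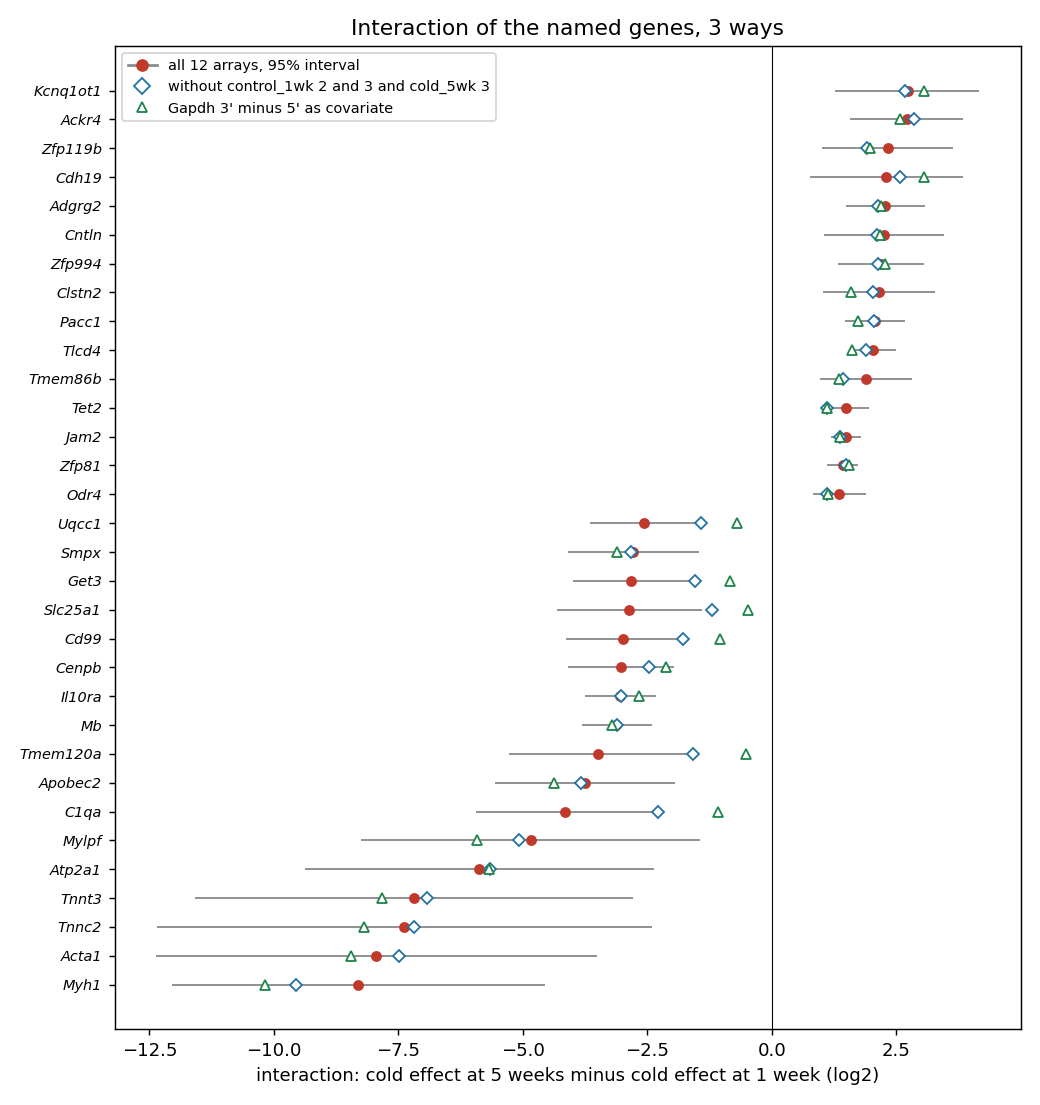
For each named gene on the y axis, the red point and bar give the interaction over all 12 arrays with its 95% interval, the blue diamond the value without control_1wk 2 and 3 and cold_5wk 3, and the green triangle the value with the Gapdh covariate, all in log2 units on the x axis. The 3 values lie close together for Jam2 (1.49, 1.37 and 1.37) and Mb (-3.12, -3.10 and -3.20) and far apart for C1qa (-4.15, -2.29 and -1.07).

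Ucp1, the best known gene of heat production, was not called in the interaction. Ucp1 was 7.77, 7.65 and 6.69 in control_1wk, 15.15, 14.90 and 15.03 in cold_1wk, 8.15, 6.39 and 6.32 in control_5wk, and 14.65, 14.80 and 14.56 in cold_5wk. All cold arrays lay far above all control arrays at both times. Its cold effect was 7.65 at 1 week and 7.71 at 5 weeks, and the interaction was 0.06 (SE 0.60, limma adjusted p = 0.957). The 95% interval of the interaction, -1.25 to 1.37, leaves room for a difference of more than 2-fold in either direction. Of the 29 tested thermogenic and brown or beige adipocyte genes, 3 were higher in the interaction, 4 were lower and 22 were not called, so 24.1% were called against 19.8% of all genes, with a median of -0.01 against 0.06. The median was 0.37 with the Gapdh covariate and 0.19 without the 3 arrays.

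The 3 genes above 0 had larger cold effects at 5 weeks. S100b, a calcium-binding protein of glia that beige fat cells also make and that acts on sympathetic nerve fibres, was 5.12, 4.58 and 4.69 in control_1wk and 8.87, 8.38 and 8.52 in cold_1wk. It was 4.43, 4.29 and 4.57 in control_5wk and 9.45, 9.71 and 9.79 in cold_5wk. Its cold effect went from 3.79 to 5.22, an interaction of 1.42 (SE 0.24, limma adjusted p = 0.00596), and it was higher at 5 weeks than at 1 week in the cold by 1.06. Slc27a2, an acyl-CoA synthetase for very long-chain fatty acids, reached an interaction of 1.78 (SE 0.25, adjusted p = 0.00412) by another route. Its signal was 4.67, 4.77 and 5.41 in control_1wk, 8.53, 8.45 and 8.52 in cold_1wk, 3.15, 3.06 and 3.05 in control_5wk, and 8.23, 8.69 and 8.35 in cold_5wk. The cold arrays were level between durations (-0.08) and the difference lay in the control arrays (-1.86). With signals under log2 4 set to 4, its interaction was 0.87. Both genes stayed called without the 3 arrays (S100b 1.68, Slc27a2 1.54). Ebf2, a transcription factor that specifies brown and beige adipocytes, had a cold effect of -0.16 at 1 week (not called) and rose by 0.78 at 5 weeks, with an interaction of 0.94 (adjusted p = 0.00921).

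The 4 thermogenic genes below 0 rose at 1 week and had smaller cold effects at 5 weeks. Clstn3, whose locus encodes a protein of multilocular fat cells, went from 3.82 to 2.38 (interaction -1.44, adjusted p = 0.0277). Cox8b, a cytochrome c oxidase subunit of brown fat and muscle, went from 3.42 to 1.87 (-1.55, adjusted p = 0.0345). Its signal in cold_5wk was 13.24 and 13.34 on replicates 1 and 2 and 11.89 on replicate 3, the array with the highest Gapdh signal of that group. Esrra, a nuclear receptor that drives mitochondrial genes, went from 1.23 to 0.13, and the beige marker Tbx1 from 0.48 to 0.06. Without the 3 arrays the interaction was -0.78 for Cox8b and -0.52 for Esrra in place of -1.10. Among other genes of heat production, the interaction was -1.35 for Elovl3 (adjusted p = 0.188), -1.70 for Cidea (0.0558), 0.99 for Dio2 (0.112), 0.15 for Ppargc1a (0.675), -0.70 for Cox7a1 (0.264), 0.55 for Plin5 (0.284) and -0.08 for Otop1 (0.942), none of them called. For Cidea, a lipid droplet protein, the Gapdh covariate gave 0.24 and leaving out the 3 arrays gave -0.28. Pdk4, a kinase that keeps pyruvate out of the mitochondrial cycle and so favours fatty acid burning, grew from 3.18 to 4.15 (0.97, adjusted p = 0.0252). Its cold_5wk arrays (13.57, 13.63 and 13.49) all lay above its cold_1wk arrays (13.26, 13.05 and 12.92).

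**Figure D4:**
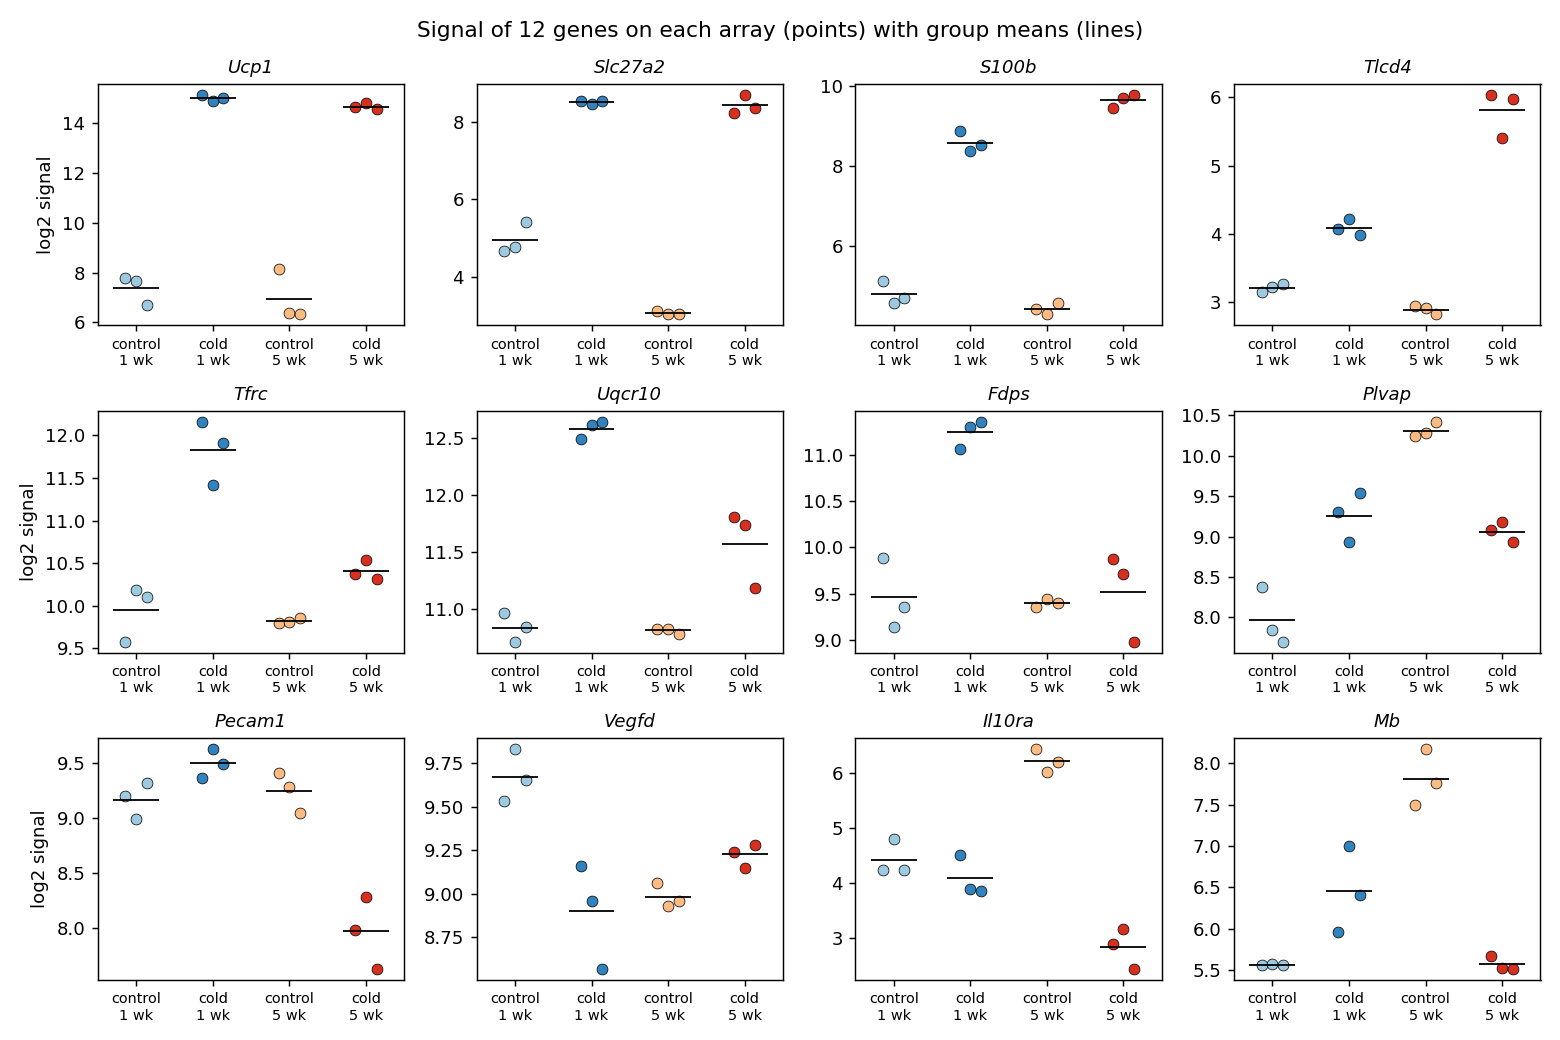
Each panel is 1 gene, each point 1 array and each line a group mean of 3 arrays, in log2 signal on the y axis, with the groups along the x axis. Ucp1 lies between 14.56 and 15.15 in both cold groups, S100b and Tlcd4 stand higher in the cold at 5 weeks, Tfrc, Uqcr10 and Fdps stand lower there, and Plvap and Mb are raised in the 5 week controls.

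Mitochondrial genes rose at 1 week and the part of them that was called in the interaction faded. Of 69 tested genes of oxidative phosphorylation, the chain of complexes that makes ATP, 0 were higher and 25 lower in the interaction, all 25 of them fading, and the median was -0.27. The rises were broad at both times, with 65 members called at 1 week and 56 at 5 weeks. Uqcr10, a subunit of complex III, was 10.96, 10.71 and 10.84 in control_1wk, 12.49, 12.61 and 12.64 in cold_1wk, 10.82, 10.82 and 10.78 in control_5wk, and 11.80, 11.73 and 11.18 in cold_5wk. The cold arrays lay above the controls both times, by 1.75 and by 0.76, and the lowest cold_5wk value was again that of replicate 3 (interaction -0.98, SE 0.20, limma adjusted p = 0.0103). Ndufa9 of complex I had an interaction of -0.68, with cold effects of 1.36 and 0.67. Uqcr11 of complex III had -0.96, with 1.13 and 0.17 (the latter not called), and Sdhc of complex II had -1.13. Uqcc1, which helps assemble complex III, faded from 2.71 to 0.15 (-2.56, adjusted p = 0.00882). The Gapdh covariate brought the median of the list to -0.06, and without the 3 arrays it was -0.11, with 2 members called. Among the genes named, the interaction without the 3 arrays was -0.44 for Ndufa9, -0.62 for Uqcr11, -0.49 for Sdhc and -1.43 for Uqcc1, and Uqcr10 (-0.67, adjusted p = 0.0603) was no longer called.

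Genes that burn fatty acids followed the same pattern. Of 24 tested, 7 were lower and 1, Pdk4, was higher (median -0.25). The 7 encode Crat, which buffers acetyl-CoA on carnitine, the beta-oxidation enzymes Echs1, Acads, Eci1 and Hadha, the electron carrier Etfb, and the kinase Pdk2. Echs1 was 12.97, 12.85 and 12.99 in cold_1wk and 12.08, 12.05 and 11.31 in cold_5wk, against controls of 11.16 to 11.65 at 1 week and 11.49 to 11.63 at 5 weeks. The groups did not overlap at 1 week and overlapped at 5 weeks. The interaction of Echs1 was -1.36 (adjusted p = 0.00921) and -0.80 without the 3 arrays, where it stayed called. Of the others below 0, without the 3 arrays, Crat was -0.79 in place of -1.30, Acads -0.59 in place of -1.31, Pdk2 -0.76 in place of -1.32 and Hadha -0.25 in place of -0.79. Etfb and Eci1 were -0.26 and -0.25 in place of -0.58 and -0.40. With the Gapdh covariate Hadha changed sign, to 0.03. The list of the tricarboxylic acid cycle, pyruvate dehydrogenase and linked enzymes had 5 of 24 lower and 0 higher. That is 20.8% called against 19.8% of all genes (median -0.09). The 5 overlap other lists, as Sdhc is also counted in oxidative phosphorylation and Me1 in fat synthesis. Pcx, which makes oxaloacetate from pyruvate, was not called at 1 week (0.20) and fell by 1.38 at 5 weeks (-1.58, adjusted p = 0.00555; -1.17 and not called without the 3 arrays, adjusted p = 0.0777). The medians of both lists moved above 0 with the Gapdh covariate (0.16 for each) and without the 3 arrays (0.03 for fatty acid oxidation and 0.12 for the cycle).

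The called genes of fat synthesis faded as well. Of 31 tested genes of fatty acid and triglyceride synthesis 8 were lower and 0 higher, with a median of -0.32. Slc25a1, the mitochondrial citrate carrier that supplies carbon for fat synthesis, was 12.30, 10.78 and 10.07 in control_1wk and 13.36, 13.23 and 13.54 in cold_1wk. It was 12.65, 12.61 and 12.65 in control_5wk and 12.44, 12.58 and 11.28 in cold_5wk. Its low values, on control_1wk 2 and 3 and cold_5wk 3, are those of the arrays with high Gapdh signal. The interaction was -2.86 over all arrays (SE 0.67, adjusted p = 0.0158), -1.20 without the 3 arrays (adjusted p = 0.0388) and -0.47 with the Gapdh covariate (adjusted p = 0.734). Agpat2 and Dgat1, which add fatty acids to glycerol, had -0.88 and -1.72, and Taldo1, of the pentose phosphate pathway, had -0.80. Without the 3 arrays these were -0.54, -0.56 and -0.45, all not called. Dgat1 was 10.71 on control_1wk 1 and 9.88 or less on control_1wk 2 and 3, the arrays of high Gapdh signal, and its interaction was 0.02 with the Gapdh covariate.

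Cholesterol synthesis had 7 of 20 members lower and 0 higher (median -0.34). Fdps, which makes farnesyl diphosphate, was 9.89, 9.14 and 9.35 in control_1wk, 11.07, 11.30 and 11.36 in cold_1wk, 9.36, 9.44 and 9.40 in control_5wk, and 9.87, 9.71 and 8.98 in cold_5wk. It rose by 1.79 at 1 week and was not called at 5 weeks (0.12), with an interaction of -1.66 (SE 0.32, adjusted p = 0.00848) that stayed called without the 3 arrays at -0.97. The sterol reductase Tm7sf2 went from 1.81 to -0.07 (-1.88, adjusted p = 0.00688) and the sterol isomerase Ebp from 0.43 to -0.52 (-0.94), called with opposite signs. Without the 3 arrays these interactions were -1.65 (adjusted p = 0.129) and -0.61 (adjusted p = 0.117), not called. The Gapdh covariate brought the medians to -0.01 for fat synthesis and -0.07 for cholesterol synthesis, and without the 3 arrays they were -0.06 and -0.12.

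Lipolysis and white adipocyte genes were called in both directions, with shares of 18.2% and 28.0% against 19.8% of all genes. Of 22 tested lipolysis and lipid droplet genes 2 were higher and 2 lower (median -0.08). Lipe, the hormone-sensitive lipase, went from a rise of 1.60 to -0.60 (not called), an interaction of -2.20 (adjusted p = 0.0128), but its other probe set gave 0.04, and without the 3 arrays it was -1.08 (adjusted p = 0.121). Pde3b, through which insulin restrains lipolysis, grew to 0.37 at 5 weeks (0.60), and Prkar2b, a regulatory subunit of protein kinase A, from 0.25 to 0.71 (0.46). Of 25 white adipocyte genes 3 were higher and 4 lower (median 0.00). The insulin receptor Insr was 9.63, 9.51 and 9.67 in cold_1wk against 10.08, 10.07 and 9.90 in control_1wk. It was 9.98, 9.84 and 9.77 in cold_5wk against 9.53, 9.57 and 9.66 in control_5wk. The cold arrays were below at 1 week and above at 5 weeks without overlap, with an interaction of 0.68 (SE 0.13, adjusted p = 0.00742) that was 0.79 and narrowly not called without the 3 arrays (adjusted p = 0.0557). Mest, an imprinted gene linked to fat cell size, was not called at 1 week (-0.22) and fell by 1.99 at 5 weeks. Its interaction was -1.77, with control_5wk at 8.66, 8.81 and 8.72 and the 1 week controls at 7.96, 6.81 and 7.42. Leptin (-0.33), adiponectin (-0.12) and Nnat (0.96, adjusted p = 0.0644) were not called.

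Endothelial genes were among the lists with the largest shares called, 41.9% of members against 19.8% of all genes. Of 31 tested, 9 were lower and 4 higher, with a median of -0.25, which was -0.02 with the Gapdh covariate. Plvap, which forms the diaphragms of capillary pores, was 8.38, 7.84 and 7.70 in control_1wk, 9.31, 8.93 and 9.54 in cold_1wk, 10.24, 10.28 and 10.42 in control_5wk, and 9.08, 9.18 and 8.93 in cold_5wk. Cold arrays were above the controls at 1 week (1.29) and below them at 5 weeks (-1.25), giving -2.54 (SE 0.26, limma adjusted p = 0.00152). The cold groups were nearly level (-0.20 between durations) and the control groups differed by 2.34. Pecam1, the adhesion protein of endothelial junctions, moved in the cold arm instead. It was 9.20, 8.99 and 9.32 in control_1wk, 9.37, 9.63 and 9.49 in cold_1wk, 9.41, 9.28 and 9.05 in control_5wk, and 7.98, 8.28 and 7.63 in cold_5wk. All 3 cold_5wk arrays lay below every other array, with an interaction of -1.61 (SE 0.23, adjusted p = 0.00427). Both stayed called without the 3 arrays (Plvap -2.07, Pecam1 -1.41). Esam, another junction protein, rose by 0.40 at 1 week and fell by 0.50 at 5 weeks (-0.90). Gpihbp1, which holds lipoprotein lipase in capillaries, rose by 1.73 at 1 week and was not called at 5 weeks (-1.73). The lowest values of Gpihbp1 in control_1wk, 8.78 and 8.74, are on the arrays of high Gapdh signal, and its interaction was -0.67 without the 3 arrays (adjusted p = 0.110) and -0.38 with the Gapdh covariate. Sox17, Ptprb, Mmrn2 and Cav1 were the 4 members above 0.

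The balance of angiogenic factors and receptors depended on the probe sets used. Of 45 tested, 10 were higher and 4 lower, with a median of 0.13, but with the mean of all probe sets 4 were higher and 8 lower, with a median of 0.02. The median was 0.20 with the Gapdh covariate, and without the 3 arrays it was 0.16 with 0 members called by limma. Vegfd, a ligand of lymphatic vessel growth, was 9.53, 9.83 and 9.65 in control_1wk, 9.16, 8.96 and 8.57 in cold_1wk, 9.06, 8.93 and 8.96 in control_5wk, and 9.24, 9.15 and 9.28 in cold_5wk. It fell by 0.77 at 1 week and was 0.24 at 5 weeks, not called, with an interaction of 1.02 (SE 0.19, adjusted p = 0.00817) that was 0.84 without the 3 arrays (adjusted p = 0.137). Vegfc, its relative, faded from -1.04 to 0.23 (1.27), and Angpt1, a ligand of the receptor Tek, from -1.17 to -0.07 (1.10). The receptors Met and Nrp1 fell at 1 week (-0.37 and -0.38) and rose at 5 weeks (0.51 and 0.30), with interactions of 0.87 and 0.68. The other probe set of Met gave -0.72. Vegfa, which drives the sprouting of blood vessels, was not called at 1 week (-0.04) and rose by 0.51 at 5 weeks (0.55, adjusted p = 0.0284), but its other probe set gave -1.91, so its direction depended on the probe set. Apln, the ligand apelin, went from 0.82 to -0.31 (-1.13), and Pdgfb, which recruits pericytes, from 0.49 to -0.61 (-1.11). Apln was -0.63 and Pdgfb -0.58 without the 3 arrays.

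Among 14 pericyte and smooth muscle markers Notch3 was higher (0.90) and Tagln (-0.66) and Des (-2.09) were lower. The other probe set of Notch3 gave -0.79, and the muscle gene Des is shared with the muscle list. Tagln was -0.37 and Des -1.05 without the 3 arrays. Of 34 hypoxia response genes 4 were higher and 5 lower (median -0.05). Tfrc, the transferrin receptor that brings iron into cells, was 12.16, 11.42 and 11.91 in cold_1wk and 10.37, 10.54 and 10.32 in cold_5wk, against 9.58 to 10.19 in the controls. The cold arrays were above the controls at both times, with a cold effect of 1.88 at 1 week and 0.59 at 5 weeks (interaction -1.28, adjusted p = 0.0109). Aldoa, an enzyme of glycolysis, faded from 1.25 to 0.30 (-0.95, and -0.55 without the 3 arrays), and the histone demethylase Kdm3a from -0.79 to -0.04 (0.75).

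Of 33 macrophage markers 3 were higher and 5 lower (median 0.12, but -0.10 with the mean of all probe sets and -0.07 with the Gapdh covariate). Il10ra, the receptor chain for interleukin-10, is outside the lists. It was 4.24, 4.80 and 4.25 in control_1wk, 4.52, 3.89 and 3.87 in cold_1wk, 6.44, 6.02 and 6.21 in control_5wk, and 2.90, 3.18 and 2.45 in cold_5wk. The groups overlapped at 1 week and were more than 2 log2 units apart at 5 weeks, for an interaction of -3.04 (SE 0.33, adjusted p = 0.00159). It was -1.96 with signals under log2 4 set to 4 and stayed called without the 3 arrays. Itgam, the CD11b integrin chain of myeloid cells, was 6.35, 6.60 and 6.25 in control_5wk and 4.13 to 5.52 on the other arrays (-1.92, adjusted p = 0.00641). Its interaction was -1.23 without the 3 arrays, not called (adjusted p = 0.0812), and -0.92 with the Gapdh covariate. Lgals3, a lectin of macrophages, had -0.81.

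C1qa, a chain of the first complement component, went from 1.53 at 1 week to -2.62 at 5 weeks (-4.15, SE 0.81, adjusted p = 0.00885). Its values were 10.56, 8.81 and 8.57 in control_1wk, 11.06, 10.38 and 11.10 in cold_1wk, 11.62, 11.53 and 11.50 in control_5wk, and 9.03, 10.05 and 7.71 in cold_5wk. The 3 arrays of high Gapdh signal held its 3 lowest values, and the interaction was -1.07 with the Gapdh covariate and -2.29 without the 3 arrays, not called (adjusted p = 0.0720). C1qc, a partner chain, was not opposed, at -0.39 and -1.37 (-0.98, and -0.64 without the 3 arrays).

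Lymphocyte markers were 2 higher and 2 lower of 29 (13.8% called against 19.8% of all genes, median -0.08). Cd28, which costimulates T cells, fell by 1.86 at 1 week and was -0.20 at 5 weeks (1.67), and the interleukin-7 receptor Il7r went from -1.57 to -0.65 (0.92, and 0.39 without the 3 arrays). Cd6, another T cell receptor, was not called at 1 week (-0.09) and fell by 1.10 at 5 weeks (-1.01). S100a9, a subunit of the neutrophil protein calprotectin, was 5.71, 5.62 and 5.77 in cold_1wk and 7.20, 7.11 and 6.80 in cold_5wk, against 7.43 to 8.65 in the controls. It was below the controls at both times, and its cold effect went from -2.42 to -1.19 (1.23, adjusted p = 0.0308; 1.88 without the 3 arrays, still called). Ciita, the master activator of MHC class II genes, was the 1 of 10 in its list that was called (-0.96). Interferon response genes were 5 higher and 0 lower of 29, 17.2% called against 19.8% of all genes, with a median of 0.39. Ifit1 faded from -2.04 to -0.05 (1.99), Ifit2 from -1.26 to 0.05 (1.30) and the GTPase Gbp3 from -1.17 to -0.12 (1.05). The median of this list was -0.09 with the Gapdh covariate and 0.05 without the 3 arrays.

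Skeletal muscle genes gave the 6 lowest interactions. The muscle mean, which is formed from the tested members of this same list, was high on all 3 control_5wk arrays and on cold_1wk 2. Of 27 tested, 12 were lower and 0 higher (44.4%), with a median of -2.31. Myh1, a fast myosin heavy chain, was 2.80, 6.56 and 2.81 in control_1wk, 2.93, 7.69 and 2.99 in cold_1wk, 10.48, 10.70 and 10.91 in control_5wk, and 2.93, 2.83 and 2.86 in cold_5wk. Only the 5 week controls and replicate 2 of each 1 week group stood above log2 4. The interaction was -8.30 (SE 1.71, adjusted p = 0.0105) and was no longer called with the muscle mean as a covariate (-3.50). Acta1, the actin of skeletal muscle, had -7.94 and its own highest value, 13.34, on cold_1wk 2. The interaction was -7.38 for Tnnc2 and -7.19 for Tnnt3 of the troponin complex, -5.87 for the calcium pump Atp2a1 and -4.84 for the myosin light chain Mylpf. With the muscle covariate Tnnc2 and Mylpf changed sign, to 0.26 and 0.36. The muscle mean is made from these same genes among others. Smaller values with it follow from its make-up and are no test of these genes. Mb, myoglobin, was 5.56, 5.58 and 5.57 in control_1wk, 5.96, 7.00 and 6.41 in cold_1wk, 7.50, 8.17 and 7.76 in control_5wk, and 5.68, 5.53 and 5.52 in cold_5wk. The cold arrays were above the controls at 1 week and below them at 5 weeks without overlap (-3.12, SE 0.32, adjusted p = 0.00152). Without the 3 arrays of high Gapdh signal Mb was -3.10, but that setting keeps the arrays of high muscle mean. The fits of Neb (-2.37) and Smpx (-2.78) rest on signals near the filter, and with values under log2 4 set to 4 they were -0.45 and -0.84.

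Of 19 clock genes tested, 5 differed between durations both in the cold and in the controls (Arntl, Dbp, Nfil3, Nr1d1 and Nr1d2), 1 in the cold only, 4 in the controls only and 9 in neither. Over all genes, 27.5% differed between durations in the cold and 2.55% in the controls, so the share of clock genes stood out in the controls. Arntl, Nfil3, Nr1d1 and Nr1d2 are named after their values were seen. Dbp, a transcription factor whose level swings over the day, was 6.64, 7.18 and 7.05 in control_1wk, 6.98, 7.06 and 6.72 in cold_1wk, 9.46, 9.54 and 9.85 in control_5wk, and 8.46, 8.51 and 8.87 in cold_5wk. It was higher at 5 weeks than at 1 week by 2.66 in the controls and 1.70 in the cold, and the cold arrays lay below the controls at 5 weeks only (-1.01), for an interaction of -0.96 (SE 0.24, adjusted p = 0.0194). The repressors Nr1d1 and Nr1d2 were also higher at 5 weeks in the controls (3.30 and 1.23) and in the cold (2.12 and 1.88), and the activator Arntl was lower (-1.10 and -0.89). Their interactions, -1.18, 0.65 and 0.21, were not called. The time of day of collection is not given in the labels, and its part was not tested. In the interaction 2 of the 19 were higher (Clock 0.70, Rora 0.58) and 2 lower (Dbp, and Bhlhe40 at -1.80), with a median of -0.19 that was 0.03 with the mean of all probe sets.

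Of 29 immediate early genes, which respond within minutes to signals and handling, 0 were higher and 4 lower. That is 13.8% called against 19.8% of all genes (median -0.17). Ier2 was 8.23, 7.96 and 7.86 in control_5wk and 6.28, 6.79 and 6.32 in cold_5wk, and 7.48 to 7.83 on the 1 week arrays. The cold arrays separated from the controls at 5 weeks only, with a fall of 1.55 and an interaction of -1.47 (adjusted p = 0.00544). Junb (-0.83) and Jun (-0.82) followed that pattern, and Ier3 went from a rise of 1.29 to -0.46 (-1.75). Jun was -0.46 without the 3 arrays.

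Of 25 heat shock genes Hspa4 was higher (0.61) and Stip1 (-1.22) and Hspb6 (-1.29) were lower, and Hspa4 was -0.09 with the mean of all probe sets. Stip1 was -0.65 and Hspb6 -0.77 without the 3 arrays. Of 28 genes of endoplasmic reticulum stress 3 were higher and 3 lower (median 0.13, -0.12 with the mean of all probe sets). Hspa5, the main chaperone there, went from -0.87 to -0.37 (0.50). Manf and Sdf2l1, secreted or luminal helpers of folding, were not called at 1 week and fell at 5 weeks, by 0.63 and 1.89. Among 27 antioxidant genes 10 were lower and 1, Sod1 (0.86), was higher, with a median of -0.22, which was -0.08 with the Gapdh covariate and -0.15 without the 3 arrays, where 0 members were called by limma. Hmox1, which breaks down heme, fell by 0.95 at 5 weeks (-1.13), Gpx4, which protects membrane lipids, went from 1.11 to -0.01 (-1.12), and mitochondrial Sod2 from 1.79 to 1.25 (-0.54). Gpx4 was -0.35 and Sod2 -0.33 without the 3 arrays, where Gsta3 was -0.59 in place of -0.92. Other probe sets of Sod1 ranged from -0.41 to 1.25.

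Of 32 proteasome subunits 8 were lower and 1, Psmc2, was higher (median -0.30, and -0.14 with the Gapdh covariate). Without the 3 arrays the median was -0.20, with 0 members called by limma. Psmb5, a catalytic subunit, was 11.86, 12.13 and 12.02 in cold_1wk and 11.30, 11.21 and 11.19 in cold_5wk, against controls of 10.74 to 11.09. It was above the controls at both times, by 1.15 and by 0.28, the latter not called (-0.87, adjusted p = 0.00663). Psmd2 and Psmc1, of the regulatory cap, rose at 1 week (0.49 and 0.43) and fell at 5 weeks (-0.41 and -0.38). Of 36 splicing and processing factors 9 were higher and 2 lower (median 0.16). With each array centred on its median 4 were higher and 2 lower. The median was 0.08 with the Gapdh covariate and 0.07 without the 3 arrays, with 0 members called by limma there. Clk1, a kinase of splicing factors, was 10.94, 10.84 and 11.05 in cold_1wk and 11.54, 11.67 and 11.66 in cold_5wk, against 11.78 to 12.36 in the controls. Its cold effect faded from -1.24 to -0.17, the latter not called (1.07, adjusted p = 0.00461), and the spliceosome subunit Sf3b1 from -0.88 to -0.02 (0.86). The cytosolic ribosomal list held 4 higher and 0 lower of 34, 11.8% called against 19.8% of all genes (median 0.09). Among them was Rps9 (0.75), whose mean over all probe sets was 0.08.

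Of 13 nerve and glia markers 4 were higher and 0 lower (30.8% called): S100b, Mbp (1.08), a myelin protein, Scn7a (1.07), a sodium channel, and Syp (0.79), of synaptic vesicles. The cold effects of Scn7a, Syp and Mbp at 1 week were -1.37, -0.50 and -0.62, and the interaction of Mbp was 0.68 without the 3 arrays. The median of the nerve list, 0.22, was 0.01 with the mean of all probe sets, where 2 were higher. It was 0.08 with the Gapdh covariate and 0.02 without the 3 arrays. Creatine and calcium cycling had 3 higher and 3 lower of 14 (42.9% called against 19.8% of all genes), and 1 higher and 3 lower with each array centred. Among them were Slc25a4 (0.49), the ATP and ADP exchanger, and the creatine kinase Ckb (-0.87). The calcium pump Atp2a1 (-5.87), also among the lower members, is shared with the muscle list. Slc25a4 was -0.15 with the mean of all probe sets. Of 35 matrix and fibroblast genes 3 were higher and 2 lower, with Fap, a protease of fibroblasts, at 0.65, and the collagens Col5a3 at -1.02 (-0.56 without the 3 arrays) and Col6a1 at -0.45. Of 35 cell cycle genes 1 was higher (Mcm4, 0.88) and 2 lower (Ccna2, -1.16, and Ccnd1, -0.50). Of the 6 tested epithelial, epididymal and mesothelial markers Esr1 was higher (0.68), and 0 of 5 erythrocyte transcripts were called by limma.

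**Figure D5:**
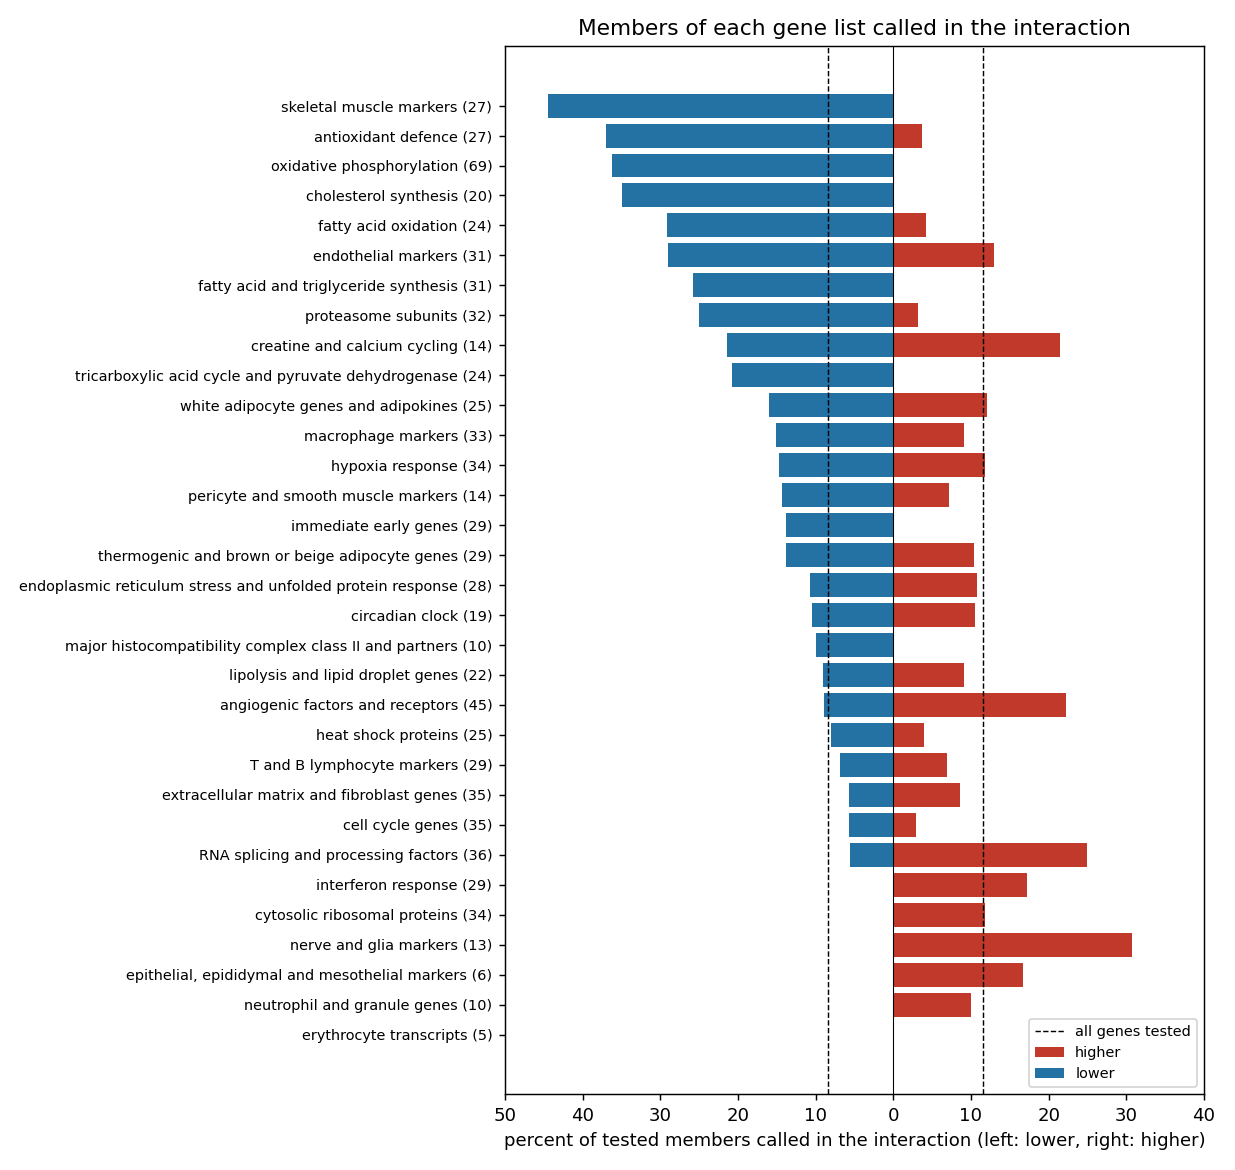
Bars give the percent of each list's tested members (number in brackets) called in the interaction, lower to the left and higher to the right, with dashed lines at the shares over all genes tested (8.38% and 11.5%). Muscle (44.4% lower), antioxidant, oxidative phosphorylation and cholesterol genes reach farthest left, and nerve and splicing genes farthest right.

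Outside the lists, several genes had cold effects called with opposite signs. Jam2, a junctional adhesion protein, was 8.34, 8.56 and 8.41 in control_1wk, 7.68, 7.46 and 7.37 in cold_1wk, 7.93, 7.91 and 7.94 in control_5wk, and 8.40, 8.53 and 8.55 in cold_5wk. The cold arrays were below the controls at 1 week (-0.93) and above them at 5 weeks (0.56) without overlap, for 1.49 (SE 0.14, adjusted p = 0.00152), although its other probe sets gave -0.18 and -0.17. Zfp81, a zinc finger gene, went from -0.82 to 0.61 (1.43, SE 0.14). Tet2, which oxidises methylated cytosine, went from -1.08 to 0.43 (1.50, SE 0.21), and Odr4 from -0.75 to 0.61 (1.36). In the other direction, Cenpb, a centromere protein, went from 1.50 to -1.53 (-3.03) and the surface protein Cd99 from 1.01 to -1.98 (-2.98, and -1.79 without the 3 arrays). Jam2, Zfp81, Tet2, Cenpb and Cd99 stayed called without the 3 arrays, and Odr4 did not (1.12, adjusted p = 0.127).

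Fading rises outside the lists were led by Tmem120a, a nuclear envelope protein of fat cells (2.03 to -1.44, the latter not called, interaction -3.48), and Get3, an ATPase that delivers membrane proteins (2.26 to -0.57, -2.83). With the Gapdh covariate they were -0.52 and -0.84, and without the 3 arrays -1.59 and -1.54, the latter still called. Fading falls were led by Kcnq1ot1 (2.73), a long RNA antisense to Kcnq1, Zfp119b (2.33), the adhesion receptor Adgrg2 (2.28), the centrosome gene Cntln (2.26), Zfp994 (2.19) and Clstn2 (2.15). On cold_1wk 2 the signal was the lowest of the 12 arrays for 5 of these 6 and for the glial cadherin Cdh19 (2.30), with 6.77 for Kcnq1ot1 and 3.48 for Cdh19, and Clstn2 was lowest on cold_1wk 3. Other probe sets of Kcnq1ot1 gave -0.50 to 0.86, and the array's strand for it was not checked.

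Growing rises were led by Ackr4, a scavenger receptor for chemokines, which was 5.89, 5.63 and 5.10 in control_1wk, 5.32, 5.51 and 4.18 in cold_1wk, 4.64, 4.46 and 5.37 in control_5wk, and 6.59, 6.98 and 7.43 in cold_5wk. All 3 cold_5wk arrays were above every other array (2.72, SE 0.52, adjusted p = 0.00817). Pacc1, a chloride channel opened by acid, was 8.24, 7.91 and 8.62 in cold_5wk and 5.77 to 6.96 on the other 9 arrays (2.07, SE 0.28), but its other probe sets gave -0.16 and 0.22. Tlcd4, a membrane protein, was 3.15, 3.22 and 3.27 in control_1wk, 4.07, 4.22 and 3.99 in cold_1wk, 2.94, 2.91 and 2.82 in control_5wk, and 6.04, 5.40 and 5.97 in cold_5wk. It was above the controls both times, by 0.88 and 2.91 (2.04, SE 0.21, adjusted p = 0.00152). Tmem86b, an enzyme of ether lipids, rose by 1.21 at 5 weeks (1.90). Of these, Pacc1 and Tlcd4 stayed called without the 3 arrays. Apobec2, a muscle gene, gave -3.75, and its other probe set gave 0.15. Over all called genes, for 1409 at least 2 probe sets passed the filter and 147 had another probe set called in the opposite direction.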

How the data were processed

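The deposited table holds log2 signals by probe set, which the authors computed with GCRMA (per the submitters' processing notes), a method that subtracts background by probe sequence, quantile-normalizes the arrays and combines probes. For the version and options of GCRMA, the answer is not given in the sources used here. Per the labels' protocols, 5 µg of Trizol-extracted total RNA was amplified once and labelled with biotin.

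Of 45101 probe sets, 64 were controls, 34958 named 1 gene, 932 several and 9211 none. Control probe sets and those above log2 4 on fewer than 3 arrays were left out, and each gene was represented by its brightest probe set (12855 genes). The interaction was fitted over 4 group means and 12 arrays by lmFit and eBayes of limma 3.58.1, under R 4.3.3 and 2-sided, with Benjamini-Hochberg adjustment over all genes at 0.05. A called gene was opposed if both cold effects were called with opposite signs. It was fading or growing if the larger cold effect, at 1 or at 5 weeks, was called. The fit was tested on simulated data with known interactions in 200 genes and noise drawn separately for each gene and array. It recovered 60% of those of log2 size 1 and 95% of those of log2 size 2, with 6 false calls. Shifts of whole arrays, such as those of RNA quality or muscle signal, were not simulated. The number of arrays limits the precision.

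Genes named were the 8 highest and 8 lowest interactions, the 4 largest per class and direction that stayed called without each array, up to 3 per list with the smallest adjusted p, and 16 fixed genes. Clone and locus names were left out. Further list members named, and Bcap31, Nfil3, Nr1d1, Nr1d2 and Arntl, were chosen after their values were seen. The 32 gene lists came from textbook knowledge. The subject, members and lists were chosen with earlier results of these data known. Alternatives covered the filter, scaling, probe sets, replicate block, array weights, covariates and arrays left out. Deviations from the group means correlated little between samples sharing a replicate number (r -0.11 to 0.18 over 18 pairs). The main fit did not pair them, and whether the numbers mark a shared batch was not tested.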

Additional observations from a re-analysis of the deposited data

Results flagged for a closer look

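The cold effect of 115 genes named by rule and of 25 others named in the text differed between 1 and 5 weeks by the limma test of the interaction (Benjamini-Hochberg adjusted p under 0.05), and each is given below with its log2 interaction. Without control_1wk 2 and 3 and cold_5wk 3 together, 22 of the 115 stayed called.

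Genes that rose in the cold at 1 week and fell at 5 weeks had interactions of -4.15 for C1qa, -3.12 for Mb, -3.03 for Cenpb, -2.98 for Cd99, -2.54 for Plvap, -0.90 for Esam, -1.80 for Bhlhe40, -0.92 for Gsta3, -0.94 for Ebp, -0.89 for Psmd2 and -0.81 for Psmc1.

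Genes that fell first and rose later had 1.50 for Tet2, 1.49 for Jam2, 1.43 for Zfp81, 1.36 for Odr4, 0.68 for Insr, 0.87 for Met, 0.68 for Nrp1, 0.58 for Rora and 0.61 for Hspa4.

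Rises at 1 week that faded by 5 weeks gave -3.48 for Tmem120a, -2.86 for Slc25a1, -2.83 for Get3, -2.56 for Uqcc1, -1.30 for Crat, -1.36 for Echs1, -1.31 for Acads, -0.68 for Ndufa9, -0.96 for Uqcr11 and -0.98 for Uqcr10. Further fading rises gave -1.13 for Sdhc, -0.98 for Me1, -0.80 for Taldo1, -0.88 for Agpat2, -2.20 for Lipe, -1.13 for Apln, -1.28 for Tfrc, -0.95 for Aldoa, -1.75 for Ier3 and -1.29 for Hspb6. The fading rises also included -1.88 for Tm7sf2, -1.66 for Fdps and -0.87 for Psmb5. Me1 was -0.37 without the 3 arrays.

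Falls at 1 week that faded gave 2.73 for Kcnq1ot1, 2.33 for Zfp119b, 2.28 for Adgrg2, 2.26 for Cntln, 2.19 for Zfp994, 2.15 for Clstn2, 1.67 for Cd28, 0.92 for Il7r, 1.23 for S100a9 and 1.05 for Gbp3. Further fading falls gave 1.99 for Ifit1, 1.30 for Ifit2, 1.02 for Vegfd, 0.75 for Kdm3a, 0.65 for Fap, 0.88 for Mcm4, 0.50 for Hspa5, 0.86 for Sod1, 1.07 for Scn7a and 0.79 for Syp. The fading falls also included 0.75 for Rps9, 0.47 for Rpl22, 0.45 for Rps7, 1.07 for Clk1, 0.86 for Sf3b1 and 0.61 for Srsf11. Without the 3 arrays Rpl22 was 0.31, Rps7 0.28 and Srsf11 0.37.

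Growing rises were called at 5 weeks, with a smaller effect of either sign at 1 week. They gave 2.72 for Ackr4, 2.07 for Pacc1, 2.04 for Tlcd4, 1.90 for Tmem86b and 1.78 for Slc27a2. Also among them were 1.42 for S100b, 0.94 for Ebf2, 0.60 for Pde3b, 0.46 for Prkar2b and 0.90 for Notch3. Further growing rises gave 0.49 for Slc25a4, 0.68 for Esr1, 0.97 for Pdk4 and 0.55 for Vegfa.

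Growing falls were called at 5 weeks, with a smaller effect of either sign at 1 week. They gave -8.30 for Myh1, -7.94 for Acta1, -7.38 for Tnnc2, -7.19 for Tnnt3 and -5.87 for Atp2a1. Also among them were -4.84 for Mylpf, -3.75 for Apobec2, -3.04 for Il10ra, -2.78 for Smpx and -1.58 for Pcx. Further growing falls gave -1.77 for Mest, -2.37 for Neb, -1.92 for Itgam, -0.81 for Lgals3, -1.01 for Cd6, -0.96 for Ciita, -1.61 for Pecam1, -0.66 for Tagln, -1.02 for Col5a3 and -0.45 for Col6a1. The growing falls also included -1.16 for Ccna2, -0.50 for Ccnd1, -0.96 for Dbp, -1.47 for Ier2, -0.83 for Junb, -1.22 for Stip1, -0.67 for Manf, -1.74 for Sdf2l1, -1.13 for Hmox1 and -0.87 for Ckb.

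Cdh19 (2.30) and Des (-2.09) were in none of these classes.

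The further genes of the lists, and Bcap31, were named after their values were seen. Above 0 were Angpt1 (1.10), Cav1 (0.31), Clock (0.70), Mbp (1.08), Mmrn2 (0.57), Psmc2 (0.50), Ptprb (0.57), Sox17 (0.72) and Vegfc (1.27). Below 0 were Bcap31 (-1.54), C1qc (-0.98), Clstn3 (-1.44), Cox8b (-1.55), Dgat1 (-1.72), Eci1 (-0.40), Esrra (-1.10), Etfb (-0.58), Gpihbp1 (-1.73), Gpx4 (-1.12), Hadha (-0.79), Jun (-0.82), Pdgfb (-1.11), Pdk2 (-1.32), Sod2 (-0.54) and Tbx1 (-0.42).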

How the results depend on the processing

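The limits lie in the arrays. With 3 arrays a group, unstated animals, and RNA quality and muscle signal that move with the interaction, sizes and counts are not firm. Signs of called genes mostly held, but those genes were selected on these same arrays. Of the 2551 called genes, 1217 stayed called without each of the 12 arrays in turn, and 70 in every alternative without a covariate or averaging of arrays. Leaving out single arrays gave 1381 to 3021 called genes, 771 to 1712 higher, 587 to 1334 lower, 111 to 288 opposed, 847 to 1968 fading and 368 to 692 growing. The cause of the changes below was not tested.

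With the Gapdh covariate limma called 3 genes (Bcap31, Hecw2 and Sit1; 1 higher and 2 lower, 1 opposed, 0 fading and 2 growing, and 1390 with an unadjusted p under 0.05). With the Actb covariate it called 0, and 0 in each direction and class, with 1004 at an unadjusted p under 0.05. With control_5wk counted as 1 array it called 1 gene, lower and opposed (0 higher, 0 fading, 0 growing; 2811 at an unadjusted p under 0.05). The muscle covariate gave 798 called, 603 higher, 195 lower, 127 opposed, 530 fading and 135 growing. Without control_1wk 2 and 3, which leaves 1 array assumed to vary like the other groups, there were 133 called, 75 higher, 58 lower, 29 opposed, 41 fading and 63 growing. Without these and cold_5wk 3 there were 160 called, 66 higher, 94 lower, 39 opposed, 52 fading and 69 growing. Both the Actb covariate and this last setting were chosen after seeing the data. Array weights gave 348 opposed genes, and the mean of all probe sets gave 935 higher. The filters (2171 to 2666 called), the floor at log2 4, centring, quantile normalization and the trended prior kept the counts within 1.5 times. With the replicate number as a replicate block 2456 genes were called.

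Signs of named genes changed as follows. The muscle covariate gave 0.26 for Tnnc2, 0.36 for Mylpf, -0.17 for Ucp1 and -0.04 for Ppargc1a. Tnnc2 and Mylpf are themselves part of the mean used as that covariate. The Actb covariate gave 0.28 for Des, 0.24 for Cox8b and 0.27 for Otop1, and the Gapdh covariate 0.02 for Dgat1, 0.03 for Hadha, 0.24 for Cidea, 0.37 for Cox7a1 and 0.90 for Otop1. The mean of all probe sets gave -0.09 for Hspa4, -0.15 for Slc25a4, -0.03 for Plin5 and -0.68 for Vegfa. Centring gave -0.00 for Ucp1. Otop1 was 0.83 without control_1wk 2 and 3, and without cold_5wk 3 as well it was 0.85 and Cox7a1 0.10. Leaving out single arrays gave -0.26 to 0.66 for Ucp1, -0.01 to 0.28 for Ppargc1a and -0.54 to 0.63 for Otop1.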

Other observations

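Probe sets that name no gene or several genes were outside the gene tests. In a fit over probe sets, 19.9% of the 22378 that name 1 gene and pass the filter were called in the interaction, 23.8% of the 648 that name several genes and 17.2% of the 3484 that name none. Of the 600 called probe sets without a gene name, 463 were higher in the interaction and 137 lower, whereas those naming 1 gene divided into 2160 higher and 2289 lower.

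In the 300 bases around the start sites of 32851 promoters (RefSeq, GRCm38.p6), the E-box CACGTG was present in 7.15%. Of 17 clock genes with a promoter, 5 held it in any of their promoters. A gene can have several promoters, so shares of genes and of promoters are not like for like. The heat shock element, searched on both strands, was in 5 of 23 heat shock genes and 0.60% of all promoters. Among these genes, Hspd1 and Hspe1 share the same element, in overlapping promoters on opposite strands. The D-box was in 1 of 17 clock genes (1.06% of all promoters). The CRE was in 3 of 24 immediate early genes (1.79%). The MEF2 site, searched only as the exact letters CTAAAAATA or CTATTTATA, was in 0 of 29 muscle genes (0.95%). Other forms of that site were not counted. None of the list members called in the interaction held the motif searched for its list.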
